A study of Mus musculus with 6 samples.

Results

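The small subunit of the cytoplasmic ribosome is built from a ribosomal RNA and a set of proteins, each encoded by a separate nuclear gene. The mRNAs of 28 of these proteins were examined in naïve CD4 T cells, out of 46983 genes in the count tables. The genes were chosen by symbol alone: Rpsa, Fau, and the listed Rps genes, without pseudogenes, S6 kinases or paralogues. All 28 were found, and all 28 passed the filter on low counts, more than 1 CPM in at least 3 libraries, where CPM is the count of a gene relative to the normalised total of its library.

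The small subunit holds the decoding centre and the channel through which the mRNA is threaded, and with the initiation factors it scans for the start codon. Its proteins are conventionally placed in the head or in the body and platform. Most ribosomal protein mRNAs begin with a C followed by a run of pyrimidines, the 5′ terminal oligopyrimidine (TOP) element, which couples their translation and stability to mTOR signalling through LARP1. RNMT methylates the guanosine cap that precedes this first nucleotide, and resting T cells keep ribosome production low until they are activated.

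Control cells came from male mice with floxed Rnmt alleles and no Cre (Rnmt fl/fl, CD4cre -). The Rnmt cKO cells came from males that carried the same alleles plus the CD4cre transgene, so the transgene and the loss of Rnmt cannot be told apart. Each group had 3 libraries of rRNA-depleted total RNA, made from lymph node cells sorted for a naïve CD4 T cell phenotype (TCRb+, CD4+ and CD44- among the gates). Cre driven by Cd4 sequences acts from the thymus onwards, also in cells that become CD8 T cells. Age is not given in the sources used here, and the labels number the replicates without naming animals, so p-values measure the spread between these 6 libraries.

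Between 8873413 and 11277764 counts per library fell on genes. Rnmt, the targeted gene, was at 51.5, 58.7 and 57.9 CPM in the controls and at 42.0, 37.5 and 26.6 CPM in Rnmt cKO, and the groups did not overlap. Its reads outside the deleted exon still count, so this level does not measure the remaining functional transcript. Uniquely mapped reads assigned to no gene on the sense strand made up different shares of the libraries, from 31.8% in Rnmt cKO 3 to 47.9% in Rnmt cKO 1. They are called reads in no gene below. Reads are assigned by exons, so this share can include reads from introns and antisense reads as well as reads between genes. Multimapping reads ranged from 8.27% in Rnmt cKO 2 to 17.5% in Control 1. Each of 8 naïve CD4 T cell markers was detected, and their summed levels overlapped between the groups, at 3906 to 4162 CPM in control and 3858 to 4386 CPM in Rnmt cKO. Of these markers, Il7r and Cd3g passed the threshold as lower and Cd4 as higher.

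The sequence around the transcription start shows how the members compare with the TOP pattern. RefSeq start windows (GRCm38.p6) were at hand for 24 of the 28 members. Each line gives 30 bases, from 5 bases before the annotated start to the 25 bases from it, read on the strand of the gene, 5′ to 3′. Capitals mark the longest run of pyrimidines that begins with C. The first 6 meet the start motif defined in the next paragraph, and the last 4 do not. They are shown because they include members with the lowest and the highest fold changes.
Rps21 (chr2:180257374-180257403, plus strand): ccgCCCTCCTgcccaatagtgctgcggagg
Rps27 (chr3:90213624-90213653, minus strand): tcgCTCCTTTCCggcggtgacgacctccct
Rps6 (chr4:86857343-86857372, minus strand): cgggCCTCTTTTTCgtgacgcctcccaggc
Rps10 (chr17:27635220-27635249, minus strand): cgCCCCTTCCTTTCCagcctccgcctcgga
Rps18 (chr17:33955641-33955670, minus strand): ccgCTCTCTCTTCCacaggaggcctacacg
Fau (chr19:6057942-6057971, plus strand): caCTTCTTCCTCTTTCTTgactccatcttc
Rps12 (chr10:23787185-23787214, minus strand): cggccaccgccggCCTTTTCCCCTgccgcc
Rps26 (chr10:128626482-128626511, minus strand): ccgccggatCCTCTTTCgagtcttggctcc
Rps28 (chr17:33824538-33824567, minus strand): gcggtCTCgcgagagcgaaagtgaggcgtg
Rps2 (chr17:24720058-24720087, plus strand): gatctcgcgCTTCTTggagcactataaatt

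The start motif was defined as a C within 2 bases of the annotated start followed by at least 4 pyrimidines on the same strand. It was present in 8 of the 24 members with a window (33.3%), in 10.6% of all 27025 genes with a window and in 12.2% of the 8492 such genes that were tested here. A run of at least 8 pyrimidines between 25 bases before and 50 bases after the start was found in 17 of the 24 (70.8%), against 24.3% of all genes with a window. An absent match says only that these letters are not at the annotated position.

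Small-subunit mRNAs were lower in Rnmt cKO almost throughout. Of the 28 members, 27 fell past the threshold and 0 rose (edgeR exact test, Benjamini-Hochberg adjusted p under 0.05 over all genes tested), while 6.84% of all 12336 genes tested fell and 8.0% rose. At an unadjusted p under 0.05, 28 members were lower and 0 higher. The share of all genes at unadjusted p was not taken, here or below. DESeq2 called 28 members lower and 0 higher, with 5.17% of all genes lower. The edgeR quasi-likelihood test called 25 lower, with 5.16% of all genes. Without Control 1, without Rnmt cKO 1 or without Rnmt cKO 2, 22 members were lower, and 4.52% to 4.84% of all genes. The median log2 fold change of the members was -0.78, against 0.01 for all genes tested. Member values ran from -1.13 for Rps12 to -0.37 for Rps2, and their quartiles were -0.88 and -0.64. In 26 of the 28 members every Rnmt cKO library was below every control library, which held for 14.9% of all genes tested. The 2 exceptions were Fau and Rps2. In bulk RNA, fewer transcripts per cell and fewer cells with the transcript cannot be told apart, and all levels are relative to the other genes of the same library.

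**Figure D1:**
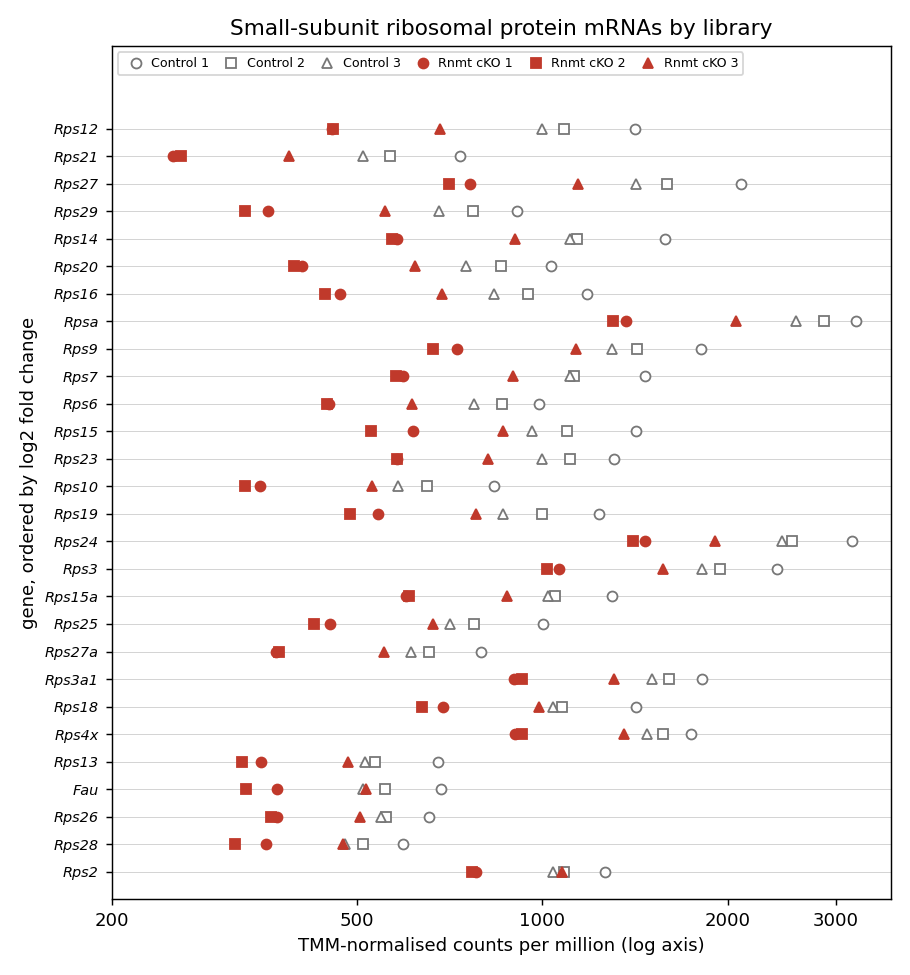
Level of each of the 28 small-subunit mRNAs in each library, in TMM-normalised CPM on a log axis, ordered by log2 fold change with the lowest at the top. Open grey symbols are the 3 control libraries and filled red symbols the 3 Rnmt cKO libraries. The groups are apart in 26 genes, Rnmt cKO 3 lies nearest to the controls in each gene, and the gap closes towards Fau and Rps2 at the bottom.

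The libraries kept the same order from gene to gene. Control 1 was the highest control and Control 3 the lowest control in 28 of 28 members, and Rnmt cKO 3 was the highest Rnmt cKO library in 28 of 28. The lowest Rnmt cKO library was Rnmt cKO 2 in 22 members and Rnmt cKO 1 in 6. Rnmt cKO 3 also had the lowest Rnmt level of the 6 libraries, 26.6 CPM. That level does not measure the remaining functional transcript, so a relation of the members to it was not tested. Within each group the highest member levels were in the library with the lowest share of reads in no gene, which was 31.8% in Rnmt cKO 3 against 47.9% and 46.5% in Rnmt cKO 1 and 2. In Control 1, 2 and 3 this share was 36.1%, 39.7% and 46.1%. With it as a covariate in an edgeR quasi-likelihood fit, 28 members were lower, with a median log2 fold change of -0.74. In that fit 11.9% of all genes tested were lower. Among the 3 libraries with the lowest share in no gene (Control 1, Control 2 and Rnmt cKO 3), the median of the members was -0.51. Among the other 3 (Control 3, Rnmt cKO 1 and Rnmt cKO 2), it was -0.78. Each of these sets has only 1 library in 1 of the groups, so the medians describe size alone. The part of this share in the fall was not tested. Without Rnmt cKO 3, 28 members were lower, with a median of -0.99, and 10.55% of all genes tested were lower.

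Among the 12 proteins of the head, 12 of 12 mRNAs fell (median log2 fold change -0.78), and all 12 were separated between the groups. Rps12 encodes a protein of the beak of the head and had the lowest fold change of all members. It lies at chr10:23785183-23787275 on the minus strand (GRCm38). Control 1, 2 and 3 held 1414, 1086 and 1000.4 CPM of it, and Rnmt cKO 1, 2 and 3 held 456, 458 and 682 CPM. Each Rnmt cKO library was well under the lowest control. Its log2 fold change was -1.13 ± 0.24 (SE; adjusted p = 1.77e-08, edgeR exact test), to a level 0.456 times that of control. Its printed start window has no start motif at the annotated start and a run of 11 pyrimidines that begins at base 9.

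Rps29 (chr12:69157722-69159186, minus strand) encodes a small zinc-binding protein of the head. It was at 909.6, 773 and 679 CPM in the controls and at 359, 330.0 and 557 CPM in Rnmt cKO. The groups did not overlap, with Rnmt cKO 3 again the nearest to the controls. The log2 fold change was -0.92 ± 0.26 (SE; adjusted p = 2.84e-05, edgeR exact test). Rps20 (chr4:3831334-3835665, minus strand) encodes a head protein that is ubiquitylated when ribosomes collide. Its level was 1032, 858 and 751 CPM in control and 408, 395 and 621 CPM in Rnmt cKO, without overlap. It had a log2 fold change of -0.89 ± 0.25 (SE; adjusted p = 2.44e-05, edgeR exact test).

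Rps28 stood at the other end of the head proteins. It encodes a small protein next to the mRNA exit channel and lies at chr17:33819027-33824562 on the minus strand. Its level was 595, 513 and 478 CPM in control and 356, 318 and 476 CPM in Rnmt cKO. Rnmt cKO 3 was only just under Control 3. Rps28 had a log2 fold change of -0.46 ± 0.20 (SE; adjusted p = 0.0201, edgeR exact test). This call was lost in 6 of 17 alternative fits.

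The other 8 head mRNAs had log2 fold changes between -0.89 and -0.61. They were Rps16, whose protein reaches the peptidyl tRNA with its tail (-0.89), Rps15, needed for export of the pre-subunit (-0.79), and Rps10, another target of ubiquitylation at stalled ribosomes (-0.78). Rps19, the gene most often mutated in Diamond-Blackfan anaemia, was at -0.78. Rps3, at the mRNA entry channel, was at -0.76, Rps25, needed by several viral internal ribosome entry sites, at -0.69, and Rps27a, made as a fusion with ubiquitin, at -0.67. Rps18, which takes part in a bridge to the large subunit, was at -0.61, and leaving out any of Control 1, Rnmt cKO 1 and Rnmt cKO 2 ended its call.

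**Figure D2:**
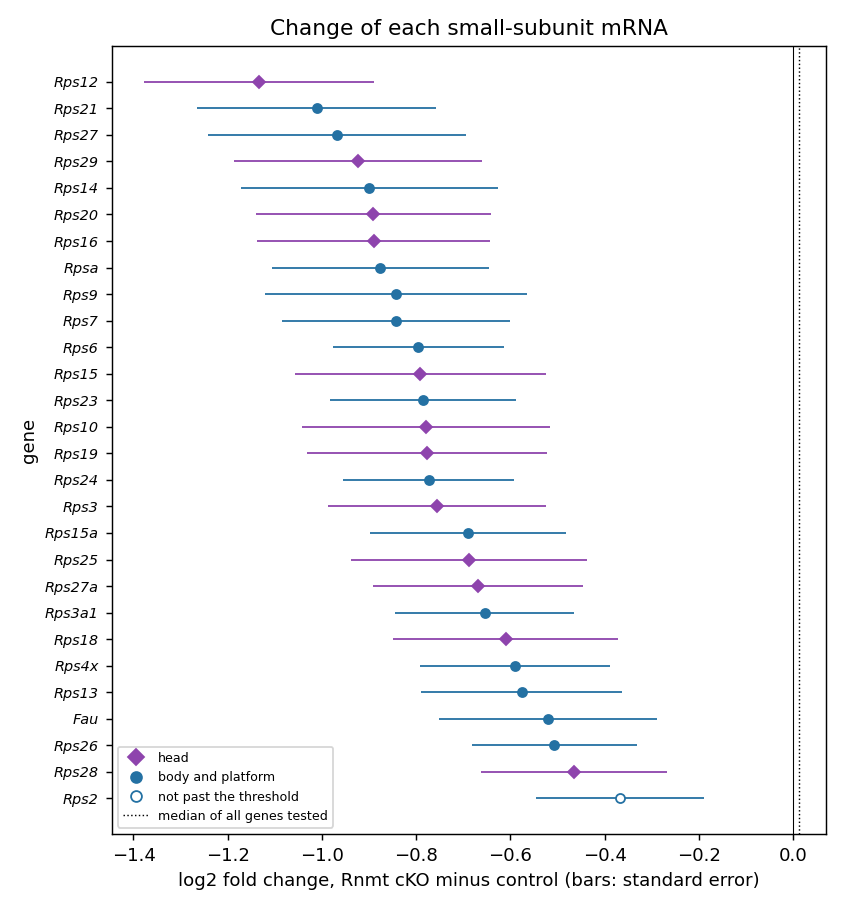
Log2 fold change of each small-subunit mRNA, Rnmt cKO minus control, with standard errors from the 3 libraries of each group as bars. Diamonds are head proteins and circles are body and platform proteins, the open circle is the 1 gene not past the threshold (Rps2), and the dotted line is the median of all genes tested (0.01). All 28 points lie below 0, and the head and body points are interleaved.

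Of the 16 proteins of the body and platform, 15 mRNAs fell and 14 were separated between the groups, with a median of -0.78. Rps21 (chr2:180257377-180258445, plus strand) encodes a small protein of the subunit. It was at 735, 567 and 512 CPM in control and at 252, 259.7 and 388 CPM in Rnmt cKO. The groups were well apart, and the log2 fold change was -1.01 ± 0.25 (SE; adjusted p = 1.23e-06, edgeR exact test).

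Rps27 (chr3:90212522-90213651, minus strand) encodes a zinc-finger protein of the platform side. It was at 2101, 1595 and 1420.1 CPM in control and at 764, 705 and 1145 CPM in Rnmt cKO, so the groups did not overlap. The log2 fold change was -0.97 ± 0.27 (SE; adjusted p = 2.30e-05, edgeR exact test). Rps14, whose haploinsufficiency underlies the anaemia of the 5q- syndrome, was at 1582, 1138 and 1111 CPM in control and at 580.5, 569.6 and 904 CPM in Rnmt cKO. Its log2 fold change was -0.90 ± 0.27 (SE; adjusted p = 1.002e-04, edgeR exact test), and Control 1 stood well above the other controls.

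Fau, Rps26 and Rps2 had the highest log2 fold changes in this group. Rps26 (chr10:128624534-128626747, minus strand) contacts the mRNA upstream of the start codon. It was at 656, 558 and 548 CPM in control and at 371, 363 and 506 CPM in Rnmt cKO, without overlap. Its log2 fold change was -0.51 ± 0.18 (SE; adjusted p = 0.00477, edgeR exact test), and again leaving out Control 1, Rnmt cKO 1 or Rnmt cKO 2 ended the call.

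Fau (chr19:6057844-6059524, plus strand) encodes a ribosomal protein joined to a ubiquitin-like peptide. It was at 684, 555 and 512 CPM in control and at 371, 330.2 and 519 CPM in Rnmt cKO. Rnmt cKO 3 was above Control 3, so the groups overlapped. The log2 fold change was -0.52 ± 0.23 (SE; adjusted p = 0.0192, edgeR exact test), and this call was lost in 6 of 17 alternative fits. Its start window holds a run of 16 pyrimidines, the longest of the printed runs.

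Rps2 (chr17:24718116-24721929, plus strand) encodes a protein near the mRNA entry site that bears on decoding accuracy. It was at 1263, 1087 and 1041 CPM in control and at 782, 769 and 1076 CPM in Rnmt cKO. Rnmt cKO 3 lay between Control 3 and Control 2. The log2 fold change of -0.37 ± 0.18 (SE) did not pass the threshold (adjusted p = 0.0733, edgeR exact test). It did pass under DESeq2, with the share of reads in no gene as a covariate, and without Rnmt cKO 3, where it was -0.56.

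The other 10 body and platform mRNAs fell, with log2 fold changes from -0.88 to -0.58. Rpsa, also described as a laminin receptor, was at -0.88, Rps9, which bears on decoding accuracy, at -0.84, and Rps7, which can bind MDM2, at -0.84. Rps6, the protein phosphorylated by the S6 kinases, was at -0.80, Rps23, a protein of the decoding centre, at -0.79, and Rps24, another Diamond-Blackfan anaemia gene, at -0.77. Rps15a was at -0.69, Rps3a1, a platform protein, at -0.65, the X-linked Rps4x at -0.59 and Rps13 at -0.58. The call of Rps13 ended, as that of Rps26 did, when any of Control 1, Rnmt cKO 1 and Rnmt cKO 2 was left out.

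The summed counts of head genes were 0.564 ± 0.017 times those of body and platform genes in control and 0.550 ± 0.014 times in Rnmt cKO (SD, n = 3 each), and the groups overlapped.

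Levels between members can be compared only per length, and then only roughly, since reads that match several places were not counted. Of the windows of 75 coding bases, 100% in Rps6 and 99.2% in Rps13 also occur in another annotated transcript. This holds for 60.1% in Rps24 and 100% in Rps27, and its part in the ranks below was not tested. In CPM per kilobase of coding sequence, the control means were highest for Rps24, 6775 ± 987, and Rps27, 6688 ± 1386, and lowest for Rps13, 1263 ± 193, and Rps6, 1166 ± 143 (SD, n = 3). The means within each of these neighbouring pairs differed by less than the SD between libraries, a spread that the members share. The pairs were not compared library by library. Rps24, Rps27 and Rps29 held ranks 1 to 3 and Rps6 rank 28 in both groups, while Rps12 went from rank 5 in control to rank 16 in Rnmt cKO. Per kilobase of all annotated exons, Rps27 and Rps29 ranked 3 and 4 in control and Rps13 ranked 27, but Rps24 ranked 19, Rps6 ranked 15 and Rps12 ranked 14. In Rnmt cKO Rps12 ranked 19 by that length, so the places of Rps24, Rps6 and Rps12 depend on the length used.

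For Rps24 the level was 3179, 2541 and 2451 CPM in control and 1468, 1404 and 1909.8 CPM in Rnmt cKO. Rps6 was at 987, 862 and 774 CPM in control and at 450.5, 447 and 614 CPM in Rnmt cKO. Rps13 was at 677, 535 and 516 CPM in control and at 349.8, 326 and 483 CPM in Rnmt cKO. In each of the 3 genes the groups did not overlap.

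Members with a high control level per kilobase of coding sequence tended to have a lower fold change. Across the 28 genes, the log2 fold change and the log2 control level per kilobase of coding sequence had a Pearson correlation of -0.51 and a Spearman correlation of -0.53. The control level enters both quantities, and genes are not independent replicates. No such correlation was taken per kilobase of all annotated exons, where several members hold other ranks. With the coding length the Pearson correlation was 0.25. With the length of the longest pyrimidine run near the start it was -0.12 over the 24 genes with a window. The 8 members with a start motif had a median log2 fold change of -0.78 and the 16 without one -0.77.

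Within the family, some members lost more of the total than others. Rps12 made up 3.64%, 3.44% and 3.42% of the members' counts in the controls and 2.65%, 2.77% and 2.73% in Rnmt cKO. Rps2 made up 3.26%, 3.44% and 3.56% in control and 4.55%, 4.66% and 4.31% in Rnmt cKO. These shares moved in opposite directions, and neither gene's groups overlapped. In this measure 7 members were lower without overlap (Rps12, Rps21, Rps27, Rps29, Rps20, Rps16 and Rpsa). Another 10 were higher without overlap (Rps15a, Rps27a, Rps3a1, Rps18, Rps4x, Rps13, Fau, Rps26, Rps28 and Rps2), and 11 overlapped. Shares of 1 total are tied to each other, so these counts describe unequal change within the family and not rises of a transcript. The measure is defined only for the members, so no share over all genes can be set beside these counts.

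Together the 28 genes took 3.54%, 3.09% and 2.86% of all gene counts in the controls and 1.83%, 1.77% and 2.47% in Rnmt cKO. The means were 3.16 ± 0.347% and 2.02 ± 0.387% (SD, n = 3 each), and the groups did not overlap. Within the libraries with few reads in no gene the share was 3.32% in control and 2.47% in Rnmt cKO. Within those with many it was 2.86% and 1.80%. As the groups did not overlap, any split of the libraries gives this direction. Each set also has only 1 library in 1 of the groups, so these values describe size alone. These shares rest on 162772 to 330014 counts per library.

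**Figure D3:**
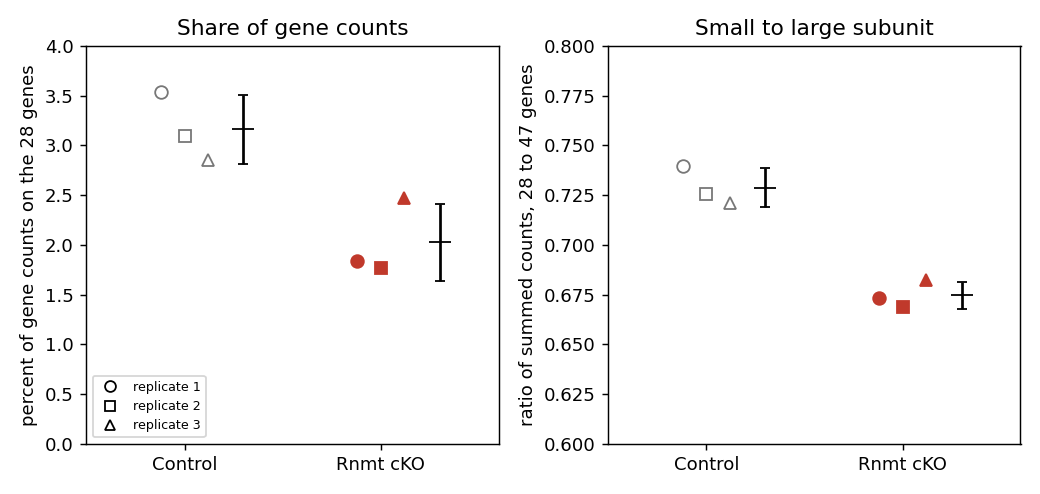
Share of all gene counts on the 28 small-subunit genes (left, percent) and ratio of their summed counts to those of 47 large-subunit genes (right, axis from 0.6 to 0.8), per library. Symbols are replicates 1 to 3, open for control and filled for Rnmt cKO, and the crosses are means with SD. The share spreads within each group and the ratio hardly does, and in both the Rnmt cKO libraries lie below all controls.

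The large-subunit genes, the family most like this one, fell less. The 47 genes had a median log2 fold change of -0.60, with 38 lower, 0 higher and 31 separated. The ratio of small-subunit to large-subunit counts was 0.740, 0.725 and 0.721 in control and 0.673, 0.669 and 0.682 in Rnmt cKO. The means of 0.729 ± 0.0098 and 0.675 ± 0.0068 (SD, n = 3 each) differed by more than the spread within either group, and no library of one group reached the other. The ratio spread little within each group, but it moved with the share of counts there. Both stood highest in Control 1 and lowest in Control 3, and highest in Rnmt cKO 3 and lowest in Rnmt cKO 2. The difference of -0.0541 lay between -0.0666 and -0.0445 when any 1 of the 75 genes was left out, with the groups apart in each case.

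The 29 genes of the mitochondrial small subunit, a ribosome with its own protein set, had a median of 0.01, with 0 lower and 0 higher (edgeR exact test). At an unadjusted p under 0.05, 0 were lower and 2 higher. Another 4 genes of the cytoplasmic small subunit outside the list had a median of -0.62, and 3 of them fell.

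**Figure D4:**
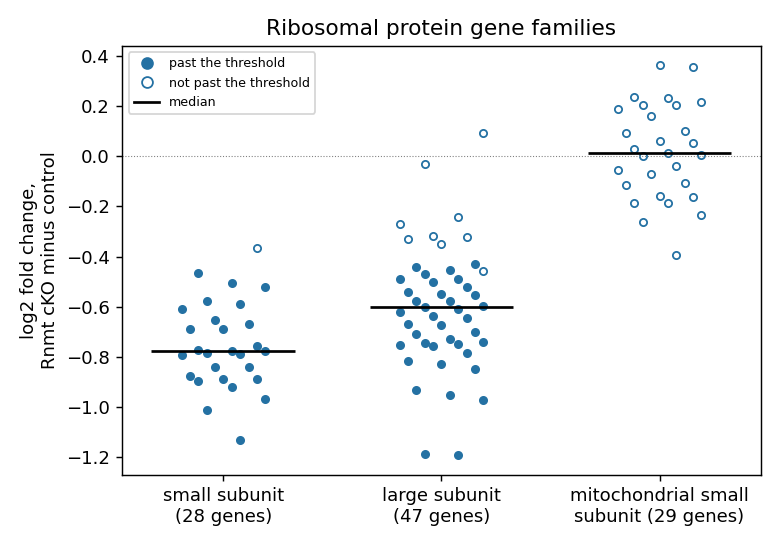
Log2 fold changes, Rnmt cKO minus control, of the genes of 3 ribosomal protein families. Each point is a gene, filled where past the threshold and open where not, and the line is the median: -0.78 for the small subunit, -0.60 for the large subunit and 0.01 for the mitochondrial small subunit. The cytoplasmic families lie almost wholly below 0, and the mitochondrial genes lie around 0 with no filled point.

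Ribosomal protein genes have many processed pseudogenes, and reads that match several places were not counted. Between 0% and 100% of the windows of 75 bases along a member's coding sequence also occur in another annotated transcript. The 5 members with under 50% of such windows (Rps3, Rps9, Rps14, Rps15 and Rps21) had a median log2 fold change of -0.84, and the other 23 had -0.77. Of 95 pseudogenes named after members, 21 were tested and 9 fell, with a median of -0.66, and each member's pseudogenes held at most 1.97% of its counts. Adding these counts to the member left 27 members lower. The multimapping share was 17.5%, 13.4% and 11.8% in the controls and 8.30%, 8.27% and 13.9% in Rnmt cKO, overlapping between the groups. Within each group the libraries stood in the same order by this share as by the members' share of gene counts. Its part in the fall was not tested.

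Several members carry small nucleolar RNAs (snoRNAs), which guide the modification of ribosomal RNA, in their introns. In all, 8 members hosted 14 annotated snoRNAs, of which 8 passed the filter. Of these, 5 fell, 0 rose and 3 did not pass the threshold. Another 4 held no count in any library, which by sampling alone allows up to 3 counts in each, and the rest were too low to test. Reads that match several places were not counted, so an absent count does not bound the level of the snoRNA itself.

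The Rpsa introns held Gm24044, Gm26448 and Snora62, with log2 fold changes of -1.70, -1.27 and -0.97, against -0.88 for Rpsa itself. Gm26448 (chr9:120129351-120129553), the most abundant of them, was at 272, 152 and 151 CPM in control and at 61.4, 59.9 and 117 CPM in Rnmt cKO, without overlap. Snord15a in Rps3 fell by 1.62 on the log2 scale (SE 0.29, adjusted p = 2.50e-09, edgeR exact test), against -0.76 for its host. It was at 19.0, 13.9 and 15.0 CPM in control and at 4.44, 3.97 and 7.17 CPM in Rnmt cKO. Rnu73b in Rps3a1 was at -1.22.

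Rps12, the host with the lowest fold change, did not carry the tested snoRNAs with the lowest values. Snora33 and Gm23130 in Rps12 had log2 fold changes of -0.52 and -0.49 and did not pass the threshold, nor did AF357399 in Rps16, at -0.78 with a standard error of 0.53. The groups of Gm23130 did not overlap. Snord100, also in Rps12, was too low to test, at 0.94, 1.10 and 1.10 CPM in control and 0.63, 0.42 and 0.18 CPM in Rnmt cKO. Members that host a snoRNA had a median of -0.82 (8 genes) and those without one -0.78 (20 genes). A read inside a snoRNA can come from the snoRNA or from the unspliced host transcript, and these counts cannot tell the sources apart.

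**Figure D5:**
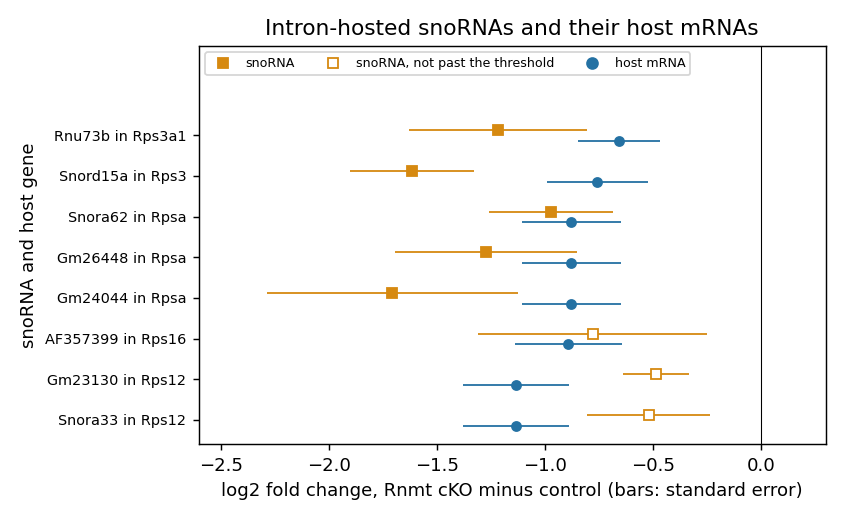
Log2 fold change, Rnmt cKO minus control, of the 8 tested snoRNAs (squares, open where not past the threshold) and of the mRNA in whose introns each lies (circles), with standard errors as bars. The snoRNAs in Rpsa, Rps3 and Rps3a1 lie to the left of their hosts, and those in Rps12 lie to the right.

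Genes that act on the small subunit are to be read against the 6.84% of all genes tested that fell and the 8.0% that rose. Of 16 tested assembly factors of the small subunit, 0 fell and 2 rose, with a median of 0.10. Noc4l, which acts in early nucleolar assembly, had a log2 fold change of 0.39 (adjusted p = 0.00902, edgeR exact test) and Rrp7a, another early factor, of 0.36 (adjusted p = 0.0359, edgeR exact test). The call of Rrp7a was lost in 11 of 17 alternative fits and that of Noc4l in 4, among them DESeq2 for both. At an unadjusted p under 0.05, 1 assembly factor was lower and 4 were higher.

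Of 20 initiation factors that bind the small subunit, 1 fell and 1 rose. Eif3i, a subunit of the eIF3 scaffold, was at 162, 139.6 and 140.5 CPM in control and at 97.5, 99.3 and 129.96 CPM in Rnmt cKO. Its log2 fold change was -0.43 (adjusted p = 0.00673, edgeR exact test), a call that did not outlast leaving out Control 1, Rnmt cKO 1 or Rnmt cKO 2. Eif5, which triggers GTP hydrolysis on the scanning complex, was at 291.3, 291.3 and 296 CPM in control and at 359, 366 and 377 CPM in Rnmt cKO. Its log2 fold change was 0.33 (adjusted p = 0.00407, edgeR exact test), a call lost without Control 2.

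Among 8 tested S6 kinase genes, Rps6ka3, an ERK-activated kinase, fell by 0.50 on the log2 scale (adjusted p = 4.99e-04, edgeR exact test), and 0 rose. The 7 genes of ribosome quality control held 0 lower and 0 higher calls (edgeR exact test), also at an unadjusted p under 0.05. Of 10 TOP mRNA regulators 1 fell and 1 rose. Pabpc1, the poly(A)-binding protein and itself a TOP mRNA, was at 720, 708 and 802 CPM in control and at 451, 504 and 568 CPM in Rnmt cKO, a log2 fold change of -0.55 (adjusted p = 5.17e-05, edgeR exact test). Larp1 was at 202, 213 and 227 CPM in control and at 269.8, 262 and 263 CPM in Rnmt cKO, a log2 fold change of 0.31 (adjusted p = 0.00933, edgeR exact test). Leaving out any of Control 1, Control 2, Rnmt cKO 1 and Rnmt cKO 2 ended the Larp1 call.

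Rack1 encodes a scaffold protein that sits on the head of the small subunit without bearing an Rps name. It was at 2177, 1817 and 1696 CPM in control and at 994, 954 and 1447 CPM in Rnmt cKO, and fell by 0.74 on the log2 scale (SE 0.22, adjusted p = 1.97e-04, edgeR exact test). Its libraries stood in the same order as those of the members. Of the paralogues, Rps27l had a log2 fold change of 0.15 and did not pass the threshold, with means of 21.3 ± 1.61 CPM in control and 23.6 ± 4.10 CPM in Rnmt cKO (SD, n = 3). Rps27rt, a low-level copy of Rps27, fell by 0.83 on the log2 scale (adjusted p = 0.0338, edgeR exact test), a call lost in 9 alternative fits, and it may share reads with Rps27.

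Markers of other cells moved between the groups as well, and their part in the results above was not tested. Of 12 proliferation genes 10 rose, and their summed level was 234 to 261 CPM in control and 504 to 544 CPM in Rnmt cKO. Of 6 B cell markers 4 rose, from a summed 39.0 to 46.3 CPM in control to 50.7 to 87.7 CPM in Rnmt cKO. Of 5 tested myeloid markers 3 rose, from 23.7 to 28.5 CPM to 30.3 to 50.2 CPM, with S100a8 at 0 in Control 1. Both CD8 T cell markers fell, from 21.7 to 23.3 CPM to 13.5 to 17.3 CPM, and the 4 erythroid genes summed to 4.53 to 7.29 CPM in control and 0.634 to 1.17 CPM in Rnmt cKO, with Hba-a1 at 0 in Rnmt cKO 2 and 3. Of the 6 memory and effector markers 2 were tested: Cd44 fell by 1.05 on the log2 scale and Il2rb rose by 0.39, while the summed levels of the 6 overlapped, at 120.03 to 131.7 CPM and 115 to 142.6 CPM. For scale, the 28 members summed to 29223 to 38798 CPM in control and 16511 to 24965 CPM in Rnmt cKO.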

How the data were processed

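The authors sequenced rRNA-depleted RNA as read pairs, aligned them to mm10 with GENCODE vM12 basic and counted reads per gene with STAR 2.5.2b. They deposited raw counts per gene and library, which are not normalized, with columns for either strand and for each strand. A deposited table of the authors' edgeR comparison held a signal per library (scaled counts) and fold changes, p-values and adjusted p-values, and these comparison columns were not used. The deposited signal matched the fourth column of the count tables, up to 1 constant per library, for 100% of 11221 genes, so these sense counts were used. Lines that name no gene were left out of library sizes.

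Symbols came from the authors' table and GENCODE vM21, which held 46488 of the 46983 identifiers and gave the coordinates (GRCm38). Genes over 1 CPM in at least 3 libraries were scaled with TMM and tested, 3 against 3, with the exact test of edgeR 4.0.16 (R 4.3.3), two-sided, adjusted over 12336 genes at a threshold of 0.05. Standard errors used log2 CPM with a prior count of 2. Scripts were tested on simulated counts. Replicates of 1 group differed beyond counting noise, with chi-square per degree of freedom of 3.85 to 25.2, so none were merged. Members, lists and tests were chosen with earlier results of these data known. Values in every library are given for the 6 lowest and 4 highest fold changes and for the 2 highest and 2 lowest levels per kilobase. Pathway genes are named where past the threshold, with Larp1. Another naïve T cell marker is not reported here. Alternatives were the edgeR quasi-likelihood test with and without a block, DESeq2 1.42.0, other scaling, filters and strand columns, a covariate, summed pseudogenes and leaving out each library. Sequences and start sites are from RefSeq.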

Additional observations from a re-analysis of the deposited data

How the results depend on the processing

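Across 17 alternative fits, 439 of 476 member values kept their direction and their side of the threshold, 34 lost the call, 3 gained it (all Rps2) and 0 changed sign. Members called lower numbered 25 under the edgeR quasi-likelihood test, 28 under DESeq2 and 22 to 28 when 1 library was left out. The median log2 fold change then ranged from -0.99 (without Rnmt cKO 3) to -0.63 (without Control 1), and the members called higher stayed at 0. Library size alone, without TMM, shifted the median of all genes to 0.14 and that of the members to -0.66, with 27 members still lower, while the higher genes went from 53.9% to 78.4% of all calls.

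Deviations of same-numbered libraries from their group means correlated at -0.21, -0.02 and -0.35, and those of differently numbered ones at -0.29 to 0.35. These values gave no sign that the replicate numbers pair the samples, but with 3 libraries per group they cannot exclude it. With a replicate block in the quasi-likelihood fit, 12 members were lower and 0 higher, and over all genes 276 were lower and 431 higher. Over all genes, calls of lower genes ranged from 547 (without Rnmt cKO 2) to 1285 (without Rnmt cKO 3), against 844, with 673 without a filter on low counts, 535 without TMM and 1466 with the covariate.

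The difference in the share of gene counts, -1.14 percentage points, was -3.13 when the share was taken of summed RPKM over protein-coding genes, which changes both the length scaling and the set of genes, and -1.36 to -0.95 when 1 library was left out. The difference in the small to large subunit ratio, -0.0541, was -0.0393 in RPKM and -0.0579 to -0.0486 without 1 library. Leaving out 1 ribosomal protein gene, an alternative chosen after the data were seen, gave -0.0666 (Rpl12) to -0.0445 (Rpsa). Counting depth does not limit the members, whose counts were at least 2386 per library, and the spread between libraries does.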
